A study of Mus musculus with 6 samples.

Results

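The nuclear lamina and HMGB genes described here are Lmna, Lmnb1, Lmnb2, Lbr, Tmpo, Emd, Banf1, Hmgb1 and Hmgb2. They were taken by symbol from the deposited tables wherever the value was not 0, and all 9 of 9 were found, among 26562 symbols with a value other than 0 and 47593 symbols in all. All 9 also passed the filter on low values, which left 15055 genes for testing. Their levels were compared in wild-type mouse primary neurons of the hippocampus that received apolipoprotein E (apoE) particles at 6 µg/mL on culture day 10, for 24 h. The particles came from astrocytes in 3 samples and from microglia in 3 samples, and no other agent or allele is recorded for either group. The stated aim was to learn how apoE particles alter the neuronal transcriptome, with neuronal senescence named in the title. Every direction below is microglial against astrocytic apoE, since neurons that received no particles were not analysed here. Nothing in the labels says that the samples of a group were separate cultures, so the p-values measure only the spread between these samples, which may be technical.

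The lamina is a meshwork of intermediate filaments under the inner nuclear membrane. It is built from A-type lamins (Lmna) and B-type lamins (Lmnb1, Lmnb2) and is tied to the membrane and to chromatin by the lamin B receptor (Lbr), the LEM-domain proteins LAP2 (Tmpo) and emerin (Emd), and barrier-to-autointegration factor (Banf1). HMGB1 and HMGB2 are abundant proteins that bend DNA in the nucleus, and HMGB1 can be released as an alarm signal. In dividing cells that become senescent, loss of lamin B1 and of nuclear HMGB1 and HMGB2 is a widely used marker, and Lmnb1, Tmpo, Lbr and Hmgb2 are known to be more highly expressed in dividing than in resting cells.

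Of these genes 6 changed, and by little. Hmgb1, Lmnb1 and Hmgb2 fell with microglial apoE, and Emd, Lmna and Banf1 rose, with folds of 1.06 to 1.14. Of the 9 members 6 passed the test, 3 higher and 3 lower, against 24.9% of all genes tested (limma, Benjamini-Hochberg adjusted p under 0.05). Higher calls made up 13.0% and lower calls 11.8% of genes tested. The 3 libraries of a group did not overlap those of the other group for 7 of the 9 members, which held for 38.9% of genes tested. The median log2 fold change of the members was -0.037, beside -0.00057 over all genes tested. Lmnb2, Lbr and Tmpo did not pass.

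The deposited values are on a log2 scale that is common to the libraries and shrinks weakly expressed genes, so the depth of each library cannot be read from them. Any 2 libraries of the same group differed by a median of 0.026 to 0.037 per gene (absolute log2 difference), and 2 libraries of different groups by 0.043 to 0.056. Over all genes 1962 were higher and 1780 lower, and this split moved with the scaling. It was 1478 higher and 2765 lower with each library centred on its median, 2516 and 1318 after equalising the sum of 2^value, and 1661 and 2327 with mitochondrial genes left out of that sum. The direction of all 9 members was the same under these 3 scalings.

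**Figure D1:**
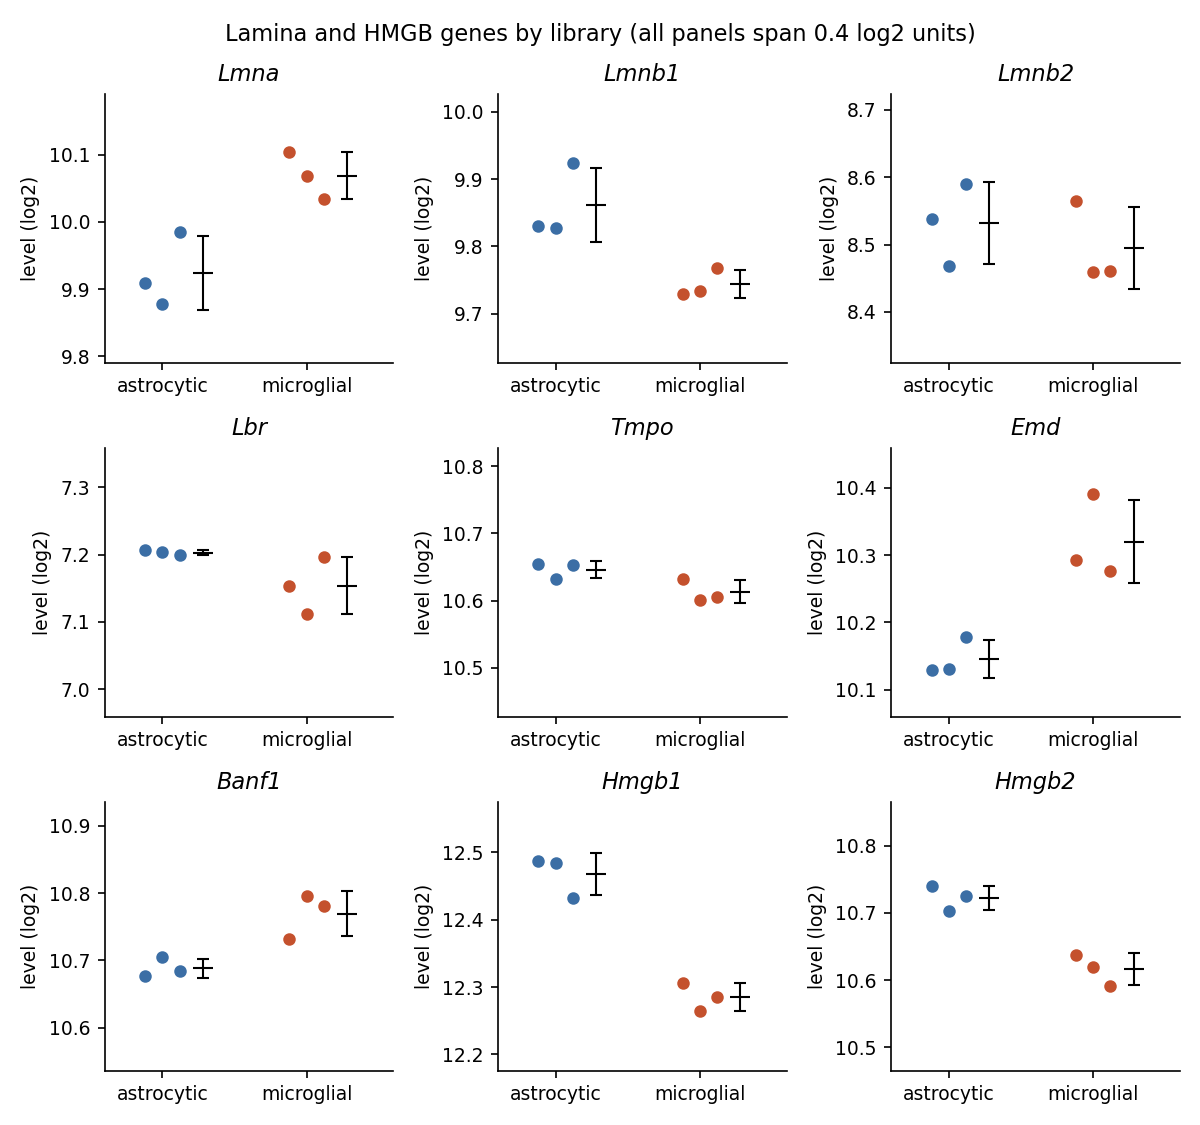
Level of each member on the deposited log2 scale (vertical axis, 0.4 log2 units in every panel) in the 3 astrocytic apoE libraries (blue) and the 3 microglial apoE libraries (orange), with the mean and SD beside the points. The groups are apart for Lmna, Lmnb1, Emd, Banf1, Hmgb1 and Hmgb2, overlap for Lmnb2 and Tmpo, and lie 0.0024 apart for Lbr.

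Lmna encodes lamins A and C, which are isoforms of 1 gene and cannot be told apart in these values (GRCm38 chromosome 3, 88480147 to 88509956). Its log2 level was 9.91, 9.88 and 9.98 in the astrocytic and 10.10, 10.07 and 10.03 in the microglial apoE libraries. All 3 microglial libraries lay above all 3 astrocytic ones. The rise was 1.11-fold, a log2 fold change of 0.14 ± 0.032 SE (limma adjusted p = 0.0013).

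Lmnb1 encodes lamin B1 (chromosome 18, 56707813 to 56753424). It stood at 9.83, 9.83 and 9.92 with astrocytic and at 9.73, 9.73 and 9.77 with microglial apoE. The groups did not overlap, and astrocytic replicate 3 was the highest of the 6 libraries. Lmnb1 fell by 0.12 on the log2 scale (SE 0.031, limma adjusted p = 0.0068), a 1.08-fold difference. Without astrocytic replicate 3 the log2 fold change was -0.086 (limma adjusted p = 0.032).

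Lmnb2 encodes the other B-type lamin (chromosome 10, 80901203 to 80918245). Its levels of 8.54, 8.47 and 8.59 with astrocytic and 8.57, 8.46 and 8.46 with microglial apoE overlapped. The log2 fold change was -0.037 with a 95% interval of -0.11 to 0.036 (limma adjusted p = 0.49). Whether Lmnb2 differed from Lmnb1 in its response was not tested.

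The A-type and B-type lamins can be set against each other within a library, where library scaling cancels. Gene length cancels only when the groups are compared, so the differences do not rank these genes by level. Lmna stood above Lmnb1 by 0.079, 0.050 and 0.060 in the astrocytic libraries and by 0.37, 0.33 and 0.27 in the microglial ones (log2 differences, not levels per length). The mean difference was 0.063 ± 0.014 in the astrocytic and 0.32 ± 0.055 in the microglial group (SD, n = 3), and every microglial library exceeded every astrocytic one. Lmna minus Lmnb2 was 1.39 ± 0.020 in the astrocytic and 1.57 ± 0.035 in the microglial group (SD, n = 3), again without overlap. No test was run on these differences, which come from the same values as the tests above.

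**Figure D2:**
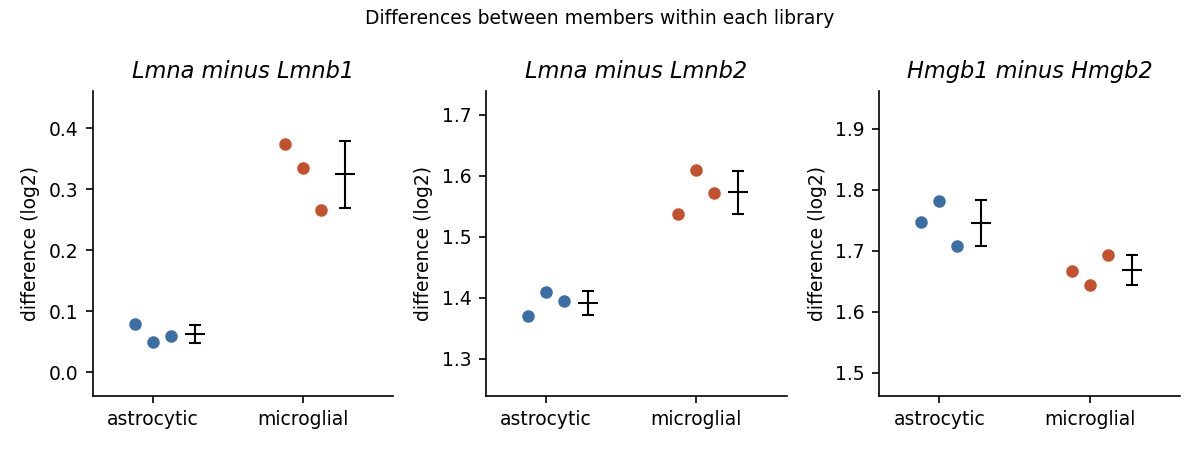
Differences in log2 value between 2 members within each library (vertical axis, 0.5 log2 units in every panel), with astrocytic apoE libraries in blue, microglial ones in orange, and the mean and SD beside them. Lmna minus Lmnb1 goes from a mean of 0.063 to 0.32, Lmna minus Lmnb2 from 1.39 to 1.57, and Hmgb1 minus Hmgb2 from 1.75 to 1.67.

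Of the genes whose products anchor the lamina or bind those anchors (Emd, Banf1, Tmpo and Lbr), Emd had the largest difference. Emd, whose product is an inner nuclear membrane LEM-domain protein (chromosome X, 74254687 to 74261548), stood at 10.13, 10.13 and 10.18 with astrocytic and at 10.29, 10.39 and 10.28 with microglial apoE. The groups were 0.097 apart, and microglial replicate 2 was the highest library. Emd rose 1.13-fold (log2 fold change 0.17 ± 0.032 SE, limma adjusted p = 0.00018), and without microglial replicate 2 the difference was 0.14.

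Banf1, the small protein that crosslinks DNA and binds LEM-domain proteins (chromosome 19, 5364638 to 5367168), stood at 10.68, 10.70 and 10.68 with astrocytic and at 10.73, 10.80 and 10.78 with microglial apoE. The groups did not overlap. Banf1 rose 1.06-fold (0.081 ± 0.028 SE, limma adjusted p = 0.036), but the call was lost in 8 of 15 alternatives. These include leaving out astrocytic replicate 1 (adjusted p = 0.12) or 2 (0.074) or microglial replicate 2 (0.099) or 3 (0.12), the replicate block (0.059), median centring (0.096) and the equal sum without mitochondrial genes (0.063). Eif1ad, a translation initiation factor-like gene on the opposite strand, shares 428 of the 1496 exon bases of Banf1 (28.6%). Eif1ad itself was higher with microglial apoE, at 9.57 ± 0.02 and 9.75 ± 0.04 (SD, n = 3, log2 fold change 0.17 ± 0.030 SE, limma adjusted p = 0.00011). The strand setting of the counting is not given in the sources used here, so reads of Banf1 and Eif1ad may be mixed, and the part of Eif1ad in the Banf1 value was not tested.

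Tmpo, which encodes the LAP2 proteins (chromosome 10, 91147571 to 91181315), stood at 10.65, 10.63 and 10.65 with astrocytic and at 10.63, 10.60 and 10.61 with microglial apoE. The groups met at 10.63. The log2 fold change was -0.033 with a 95% interval of -0.089 to 0.023 (limma adjusted p = 0.41). Lbr, an inner membrane protein with a sterol reductase domain (chromosome 1, 181815335 to 181843046), stood at 7.21, 7.20 and 7.20 with astrocytic and at 7.15, 7.11 and 7.20 with microglial apoE. All 3 microglial libraries were lower, microglial replicate 3 by 0.0024 only. The difference was -0.049 with a 95% interval of -0.11 to 0.0097 (limma adjusted p = 0.22). At the level of Lbr the transformation compresses differences, and its pooled SD of 0.030 lay below the 0.12 that counting alone would give if 2^value were a count.

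Hmgb1 had the largest difference of the 9 members and ranked 783 of 15055 genes by absolute log2 fold change (chromosome 5, 149046702 to 149184489). It stood at 12.49, 12.48 and 12.43 with astrocytic and at 12.31, 12.26 and 12.29 with microglial apoE. The groups were 0.13 apart. Hmgb1 fell by 0.18 on the log2 scale (SE 0.027, limma adjusted p = 1.1e-05), a 1.14-fold difference. Hmgb2 (chromosome 8, 57511907 to 57515999) stood at 10.74, 10.70 and 10.72 with astrocytic and at 10.64, 10.62 and 10.59 with microglial apoE, without overlap. It fell by 0.11 on the log2 scale (SE 0.028, limma adjusted p = 0.0058), a 1.08-fold difference. Within a library, Hmgb1 exceeded Hmgb2 by 1.75 ± 0.037 in the astrocytic and by 1.67 ± 0.025 in the microglial group (SD, n = 3), and the libraries of the groups did not overlap.

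Near-identical copies limit the precision of 3 members. GENCODE M21 holds 122 pseudogene copies of Hmgb1, 17 of Emd and 10 of Hmgb2 with at least 90% identity over at least 300 bases, and none was found for the other 6 members at these settings. Of the Hmgb1 copies 72 are in the tables by name, 40 of them not at 0, and together these came to 4.23% of the 2^value of Hmgb1. The summed share was 2.44% for Emd and 0.999% for Hmgb2. Of the 4 tested Hmgb1 copies, Gm5518 (-0.069) and Gm5527 (-0.069) passed and were lower, and Hmgb1-ps2 (-0.065) and Gm15387 (-0.041) were lower without passing. It is unknown how reads matching both a member and a copy were counted, and copies without a value add nothing to these sums. The shares therefore do not bound the error in the values of Hmgb1, Hmgb2 and Emd, and its size was not tested.

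**Figure D3:**
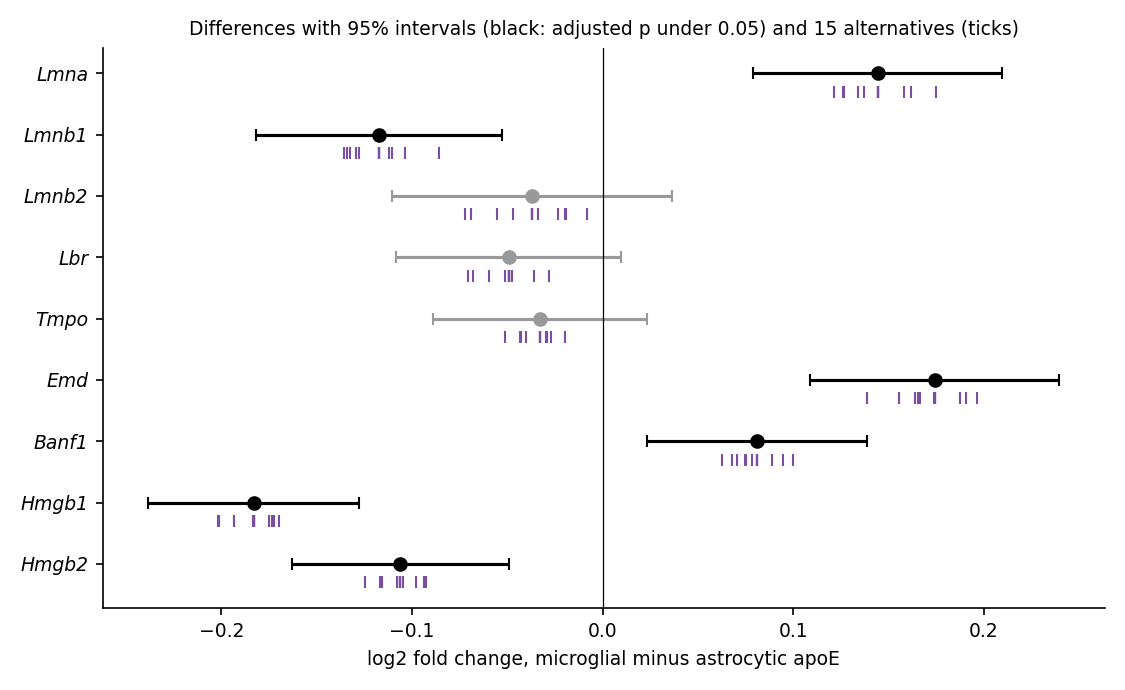
Log2 fold change of each member (horizontal axis, microglial minus astrocytic apoE) with its 95% interval from limma, black where the adjusted p was under 0.05 and grey otherwise, and the values under 15 alternative settings as ticks below. Hmgb1 lies lowest at -0.18 and Emd highest at 0.17, and no tick crosses 0.

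The levels of different genes can be compared only per length. As 2^value per kilobase of merged exons, Hmgb1 came first with 1128 ± 24.2 and Banf1 second with 1103 ± 10.9 in the astrocytic libraries (SD, n = 3). With microglial apoE Banf1 stood at 1167 ± 26.8 and Hmgb1 at 993.6 ± 14.2, and over all 6 libraries the ranges of these genes overlapped. Hmgb2 (562.7 ± 7.06) and Emd (450.2 ± 8.86) followed with astrocytic apoE, and their ranges over the 6 libraries overlapped as well. Lmnb1 (314.1 ± 12.1), Lmna (166.5 ± 6.38), Tmpo (145.7 ± 1.21), Lmnb2 (86.4 ± 3.63) and Lbr (31.0 ± 0.080) came next without overlap between neighbours. Merged exons count every annotated isoform, which lowers the per-kilobase level of genes with long alternative ends such as Tmpo, with 10998 exon bases.

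The promoter sequences of 3 members are shown because Hmgb2 fell, Emd rose, and Lbr, chosen after the matches were seen, holds the same marked letters as Hmgb2. They are the 250 bases before a RefSeq start on GRCm38.p6, and none of the 3 windows holds an annotated exon. Capitals mark CCAAT, the core of the NF-Y site, and TTTGAA, the core of the CHR element of cell cycle genes, on either strand.
Hmgb2: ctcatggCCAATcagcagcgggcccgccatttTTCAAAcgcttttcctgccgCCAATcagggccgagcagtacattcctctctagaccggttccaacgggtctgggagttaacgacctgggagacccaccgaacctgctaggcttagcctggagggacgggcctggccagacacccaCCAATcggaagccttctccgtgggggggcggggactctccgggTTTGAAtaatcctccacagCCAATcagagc
Lbr: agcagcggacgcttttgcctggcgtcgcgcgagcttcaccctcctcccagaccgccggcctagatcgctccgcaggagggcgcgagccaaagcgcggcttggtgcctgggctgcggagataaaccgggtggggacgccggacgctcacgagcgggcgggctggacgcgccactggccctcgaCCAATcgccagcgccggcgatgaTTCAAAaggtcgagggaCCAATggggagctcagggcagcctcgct
Emd: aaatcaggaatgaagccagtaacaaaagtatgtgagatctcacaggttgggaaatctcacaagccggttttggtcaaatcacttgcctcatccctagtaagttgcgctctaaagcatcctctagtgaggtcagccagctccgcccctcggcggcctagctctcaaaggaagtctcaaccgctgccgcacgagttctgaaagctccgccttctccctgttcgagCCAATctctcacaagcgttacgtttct
Hmgb2 lies at chr8:57511593-57511842 on the plus strand, Lbr at chr1:181842402-181842651 on the minus strand and Emd at chrX:74254437-74254686 on the plus strand. The window of Hmgb2 held 4 matches to CCAAT and 2 to TTTGAA, the nearest TTTGAA from 30 to 25 bases before the start (-30 to -25). The window of Lbr held 2 and 1, with TTTGAA at -45 to -40, and that of Emd held 1 CCAAT and no TTTGAA.

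RefSeq promoter windows were used for 8 of the 9 members, 13 windows in all. No window of Lmnb1 was used, so the counts below do not cover it. Some windows, of Banf1, Hmgb1 and Lmna, reach into annotated exons. A CCAAT was in 7 of these 13 windows and in 33.9% of all 32841 windows of that length. TTTGAA was in 3 of 13 (Hmgb2, Lbr and Tmpo) and in 16.0% of all windows. Both stood together in 2 of 13, those of Hmgb2 and Lbr, and in 5.55% of all windows. The GC box GGGCGG was in 9 of 13 (32.7% of all windows), the E2F-type sequence TTTCCCGC in 2 of 13 (0.895%) and the AP-1 sequence TGANTCA in 1 of 13, that of Lbr (6.75%). No member window held TTCGAA (1.34%), TTTGGCGC (0.417%), TATAAA (12.4%) or the antioxidant-type TGACNNNGC (10.2%). All motifs were searched on both strands, none contains another, and a match is a description of the letters only. Matches can share bases, as do TTTCCCGC and GGGCGG in a window of Banf1, and TGANTCA (-48 to -42) and TTTGAA (-45 to -40) in that of Lbr.

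Other genes of the nuclear envelope were described from fixed lists. Over all genes tested 13.0% were called higher and 11.8% lower, shares to set beside every list count below. Of 11 tested inner nuclear membrane genes outside the members, 4 rose and 0 fell (1 fell without the filter on low values), with a median log2 fold change of 0.046. Tor1aip1, which encodes the lamin-binding protein LAP1, rose from 9.59 ± 0.01 to 9.79 ± 0.04 (SD, n = 3, 0.20 ± 0.030 SE, limma adjusted p = 1.8e-05). Its paralogue Tor1aip2 (0.099 ± 0.029 SE), the membrane protein genes Tmem201 (0.099 ± 0.033 SE) and Tmem43 (0.086 ± 0.029 SE) rose less. The number that rose was 2 without astrocytic replicate 1, 2 without astrocytic replicate 2, 1 without microglial replicate 1, 2 without microglial replicate 2 and 2 with median centring, and Tor1aip1 was past the threshold in all of these.

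The LINC complex joins the lamina to the cytoskeleton. Of its 5 tested genes 1 rose (median 0.025), beside 13.0% higher calls over all genes. Sun2, a SUN-domain protein of the inner membrane, went from 9.90 ± 0.03 to 10.13 ± 0.03 (SD, n = 3), a 1.17-fold rise (0.23 ± 0.029 SE, limma adjusted p = 1.4e-06). Its paralogue Sun1 had a log2 fold change of 0.0088 (SE 0.030, limma adjusted p = 0.87), and whether the 2 differ was not tested. None of 5 lamin maturation enzymes, which farnesylate, cleave and methylate the lamin tail, passed in limma (median 0.028), among them Zmpste24, which cuts prelamin A (0.028, adjusted p = 0.54). Before adjustment 0 of 5 were under 0.05 as well, the smallest limma p being 0.089.

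Of 29 tested nuclear pore genes 4 rose and 1 fell (median 0.023), beside 13.0% higher and 11.8% lower calls over all genes. The counts were 7 and 0 with the equal sum of 2^value and 3 and 2 with median centring. The scaffold gene Nup188 (0.17 ± 0.029 SE), the mRNA export factor Rae1 (0.13 ± 0.032 SE) and Sec13 (0.11 ± 0.030 SE), which is shared with vesicle coats, led the rises, and the transmembrane nucleoporin Ndc1 fell by 0.089. The Ndc1 call was lost with the equal sum (limma adjusted p = 0.060), without astrocytic replicate 1 (0.076) or 2 (0.11) and without microglial replicate 1 (0.087) or 3 (0.094). Among 15 tested heterochromatin partners of the lamina, Trim28, a corepressor that binds heterochromatin protein 1, rose (0.18 ± 0.029 SE). Cbx3, which encodes heterochromatin protein 1 gamma (-0.12 ± 0.031 SE), and the histone methyltransferase gene Suv39h2 (-0.10 ± 0.027 SE) fell, 1 higher and 2 lower in all (median -0.0095). Cbx3 did not pass without astrocytic replicate 1 (limma adjusted p = 0.056), and 3 rose without astrocytic replicate 3, 2 without microglial replicate 2 and 2 with the equal sum.

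**Figure D4:**
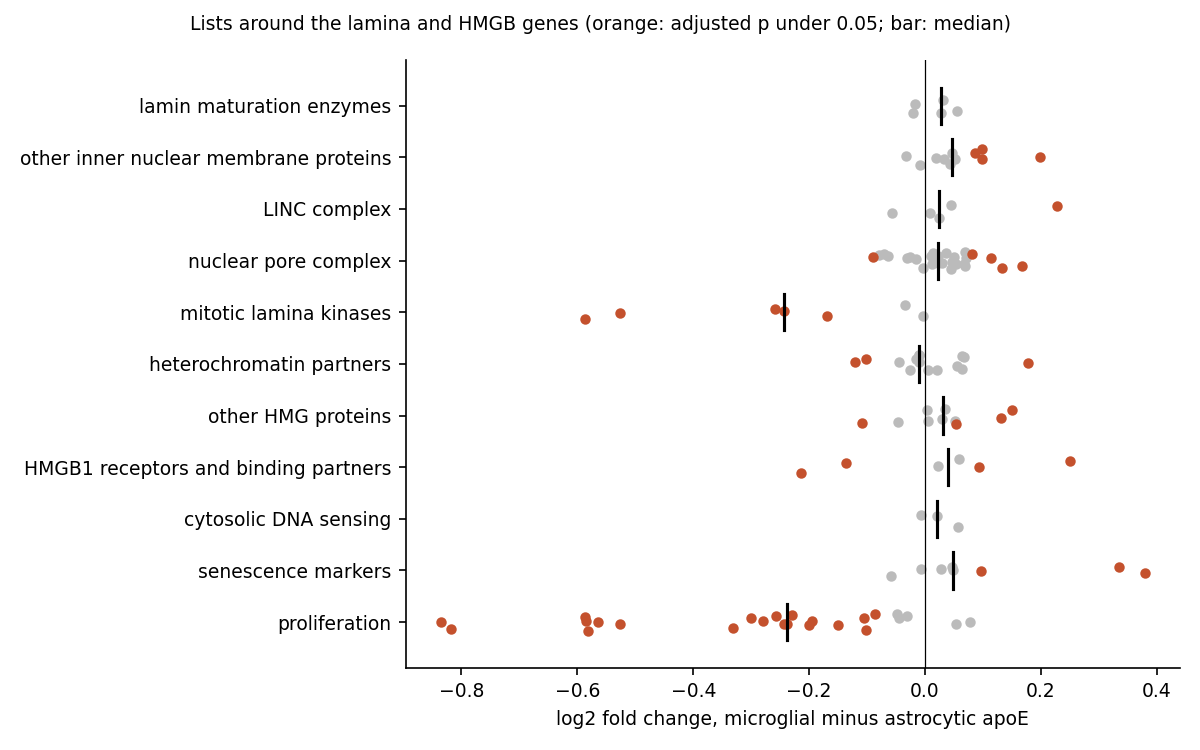
Log2 fold change (horizontal axis, microglial minus astrocytic apoE) of every tested gene in 11 lists, orange where the adjusted p was under 0.05, with the list median as a bar. The medians of the mitotic lamina kinases and the proliferation genes lie below 0, at -0.24 and -0.24, and the medians of the other 9 lists lie between -0.0095 and 0.048. The mitotic lamina kinase and proliferation lists share Cdk1, Ccnb1 and Plk1.

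The other HMG genes went both ways. Of 10 tested, 3 rose and 1 fell (median 0.032), beside 13.0% higher and 11.8% lower calls over all genes. Hmga1, an AT-hook protein linked to heterochromatin foci (0.15 ± 0.028 SE), and the nucleosome-binding Hmgn1 (0.13 ± 0.028 SE) rose, and Hmgn2 fell by 0.11 (SE 0.027), a call lost without microglial replicate 3 (limma adjusted p = 0.056). Hmga2, a low gene at 4.71 ± 0.02 and 4.76 ± 0.02 (SD, n = 3), was the third that rose. That call was lost with median centring (limma adjusted p = 0.14), the equal sum without mitochondrial genes (0.061), limma without the trend (0.10), and without astrocytic replicate 1 (0.14) or microglial replicate 1 (0.090). Hmgb3, the closest relative on the list, stood at 10.51 in both groups (0.0037, limma adjusted p = 0.94).

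Of 12 listed receptors and binding partners of HMGB1, 6 were tested, 2 rose and 2 fell (median 0.040). Over all genes 13.0% were called higher and 11.8% lower. The adaptor gene Myd88, which acts below Toll-like receptors and also responds to interferon, rose 1.19-fold (0.25 ± 0.029 SE) and Tlr2 rose by 0.094. Cd24a, a surface protein that binds HMGB1 (-0.21 ± 0.029 SE), and Cxcl12, a chemokine that forms a complex with HMGB1 (-0.14 ± 0.029 SE), fell. The Tlr2 call was lost without astrocytic replicate 1 (limma adjusted p = 0.12) or 2 (0.066) or microglial replicate 1 (0.090) and with median centring (0.057). The receptor genes Ager (2.86 and 2.87 in the 2 groups) and Tlr4 (3.31 and 3.32) lay under the filter. Of 3 tested genes of cytosolic DNA sensing, the pathway that Banf1 restrains, 0 passed in limma (median 0.020, 0 of 3 at an unadjusted p under 0.05), and Trex1 is listed at 0.

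Other senescence markers were set beside the members, as RNA levels only. Loss of a protein, or of its place in the nucleus, cannot be read from these values. Of 8 tested 3 rose and 0 fell (median 0.048), beside 13.0% higher and 11.8% lower calls over all genes. The p21 gene Cdkn1a rose 1.30-fold and Trp53 1.26-fold, and H2afy, which encodes the histone macroH2A1, by 0.097, a call lost without astrocytic replicate 1 or 2 or microglial replicate 3 (limma adjusted p = 0.12, 0.10 and 0.053). Cdkn2a (0.028, limma adjusted p = 0.15) and Cdkn2b (0.047, adjusted p = 0.23) did not pass. Nor did Rb1 (0.049), Glb1 (-0.0068) and H2afx (-0.059). Lmnb1, Hmgb1, Hmgb2 and these markers were all listed with earlier results of these data known, so their counts are not independent evidence of a direction.

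**Figure D5:**
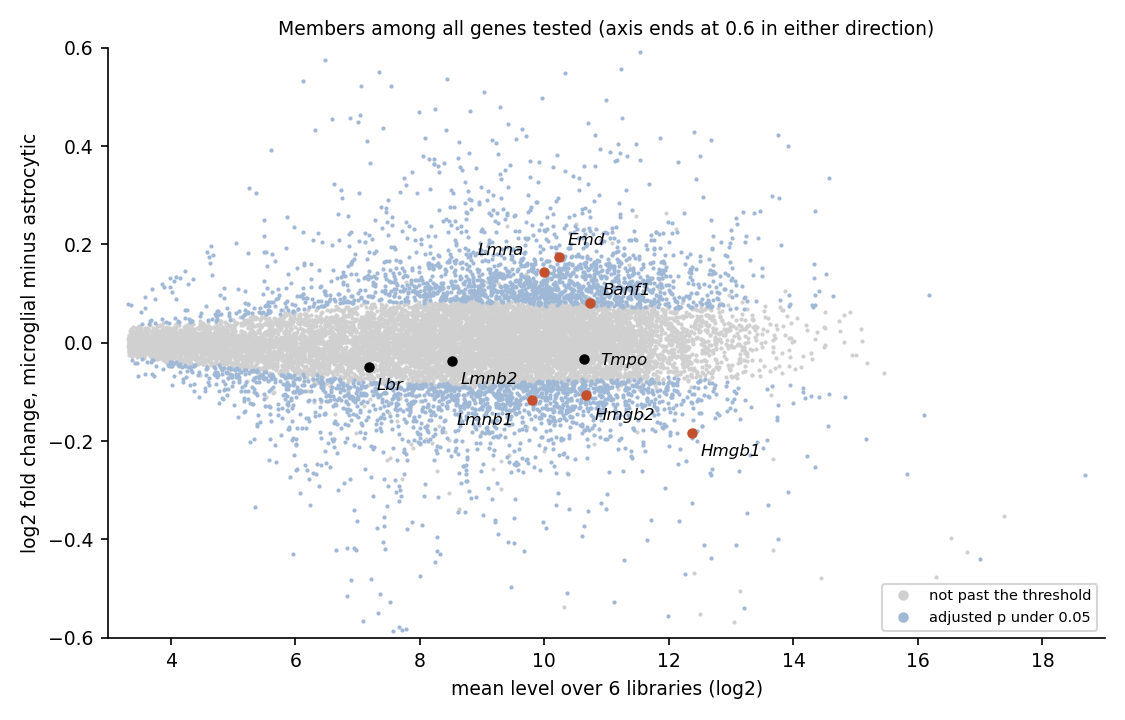
Log2 fold change (vertical axis, ending at 0.6 in either direction, with 80 genes beyond it) against the mean level over 6 libraries (horizontal axis, log2) for the 15055 genes tested, blue where the adjusted p was under 0.05. The 6 members that passed are orange and the 3 others black, and all 9 lie within 0.2 of 0.

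Transcripts of dividing cells also differed between the groups. Of 25 tested proliferation genes 20 fell and 0 rose (median -0.24), while 1 rose with the equal sum of 2^value or without astrocytic replicate 2. Over all genes 11.8% were called lower and 13.0% higher. Their summed 2^value was 8498 to 8567 with astrocytic and 7223 to 7321 with microglial apoE. Of 7 kinase genes that act on the lamina in mitosis or their cyclins, 5 fell (median -0.24). Cdk1, Ccnb1 and Plk1 are on both of these lists, so the 2 counts are not separate observations. Ccnb1, the cyclin that with Cdk1 drives lamina breakdown, fell by 0.59 and Cdk1 by 0.53, while Vrk1, whose kinase releases barrier-to-autointegration factor from chromatin, had a log2 fold change of -0.0038 (limma adjusted p = 0.95). Mki67 (-0.82), Top2a (-0.83) and Cenpf (-0.56) fell as well. Of the members named above as higher in dividing cells, Lmnb1 (-0.12) and Hmgb2 (-0.11) passed. Tmpo (-0.033) and Lbr (-0.049) did not. The part of dividing cells in the falls of Lmnb1, Hmgb2 and Hmgb1 was not tested.

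Markers of cell types were summed in these bulk cultures, in which fewer cells of a type and less RNA per cell cannot be told apart. The sums are not per length, so they compare the groups and do not rank the cell types. Neuronal markers had a summed 2^value of 58088 to 58698 for astrocytic and 57023 to 57981 for microglial apoE (1 of 9 higher, 3 lower, median -0.013). Astrocyte markers summed to 72560 to 73761 and to 61221 to 61785, with 8 of 9 tested lower and 1 higher (median -0.40). Neural progenitor markers summed to 18623 to 19664 and to 19164 to 19733 (2 higher and 2 lower of 7, median 0.010), and oligodendrocyte lineage markers to 5999 to 6296 and to 6160 to 6332 (1 higher and 2 lower of 8, median -0.015). Microglial markers summed to 288.5 to 290.6 and 291.0 to 298.4, and 0 of 7 tested passed in limma (median 0.038, 2 of 7 at an unadjusted p under 0.05). Endothelial and mural markers summed to 1246 to 1304 and 1412 to 1430 (1 of 4 higher, median 0.046), and fibroblast markers to 785.1 to 807.8 and 736.1 to 755.4 (2 higher and 1 lower of 4, median 0.013). The lower fibroblast marker was Pdgfra (-0.38), which is also on the oligodendrocyte lineage list. The collagen genes Col1a1 (0.21) and Col1a2 (0.082) were the 2 that rose. No marker of any of these lists was listed at 0, and their part in the values of the members was not tested.

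Genes with the profile most like a member were sought by the root mean square difference over the 6 libraries, each gene centred on its own mean, among 13448 other tested genes. Among the closest to Lmna were Inpp5b (0.014), a phosphoinositide phosphatase gene, and Aimp2 (0.014), a scaffold gene of the tRNA synthetase complex, where the profile of Lmna itself has a size of 0.081. Closest to Lmnb1 (size 0.068) were the formin gene Fhod3 (0.0096), the glycosyltransferase gene Pomgnt2 (0.0097) and D8Ertd82e (0.012). Closest to Hmgb2 (size 0.056) were Ngly1 (0.0068), which removes glycans from misfolded proteins, the small GTPase gene Rab15 (0.010) and Actr6 (0.010), an actin-related gene. Of the other members, Hmgb2 was the closest to Lmnb1, at 0.041 and in place 601. For Lmna it was Emd, at 0.045 and in place 854.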

How the data were processed

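Total RNA of 6 samples was sequenced on a DNBSEQ platform. The authors deposited 1 log2 value per gene symbol and sample. Per the submitters' processing notes, FastQC, HISAT2, featureCounts and DESeq2 were used with GRCm38. Neither their roles nor their versions are stated there. The same 21031 symbols stand at exactly 0 in every library, 0 symbols in only some, and the spread of weak genes is compressed, as in a regularized logarithm (inferred from the values). Depth is therefore unknown.

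The values were tested as deposited with limma 3.58.1 in R 4.3.3 (trend and robust options), without a pseudocount, for genes reaching log2 of 10 in at least 3 libraries. Calls used Benjamini-Hochberg adjustment across the whole table and a threshold of 0.05. Members and lists were chosen with earlier results of these data known, and lists were described by counts and medians, without a set test. Text names all members, up to 3 called genes per pathway list with the smallest p, and the 3 nearest profiles of Lmna, Lmnb1 and Hmgb2. A gene that this rule takes is not reported here. Other names (such as Ndc1, Tmem43, Hmga2, Tlr2, Sun1, Vrk1, Hmgb3, Eif1ad and the pseudogenes) were chosen after their values were seen. Positions and lengths are from GENCODE M21, promoters from RefSeq, and copies were found with BLAST 2.17.0. Tables and figures used Python 3.11.15, numpy 2.4.6, pandas 2.3.3 and matplotlib 3.10.9. Alternatives covered the filter, the pseudocount, 3 scalings, the variance model, a replicate block and leaving out each library.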

Additional observations from a re-analysis of the deposited data

How the results depend on the processing

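Over 15 alternatives, every member kept its direction, and all members but Banf1 kept their side of the threshold (127 of 135 values). Banf1 stayed positive and was not called without the low-value filter (0.081, adjusted p = 0.067), median centring (0.063, 0.096), the equal sum without mitochondrial genes (0.071, 0.063) and the replicate block (0.081, 0.059). With 1 library left out it was 0.068 to 0.0997, called only without astrocytic replicate 3 or microglial replicate 1. The highest adjusted p of the other called members in limma was 0.023 for Lmna, 0.038 for Lmnb1, 0.0035 for Emd, 5.4e-04 for Hmgb1 and 0.046 for Hmgb2. The count of lower genes was 2765 with median centring against 1780. That of all changed genes was 3387 with the replicate block and 4541 without astrocytic replicate 3. It was 2556 to 3258 with any other library left out. The replicate numbers do not pair the samples. Deviations of same-numbered libraries correlated at 0.039, -0.12 and -0.19 across genes, and not every library correlated best with its own number. The block changed no call of another member. Of 464 alternative values of other named genes 43 fell short of the threshold and none reversed. The half-widths of the members' 95% intervals, 0.055 to 0.073, limit what could be resolved, and the compressed SDs of genes below a level of 12 may make p-values too small.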
